A study of Mus musculus with 2 samples.

Results

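The genes described here are 6 long noncoding RNA genes of the mouse, Malat1, Neat1, Pvt1, Dleu2, Mir17hg and Kcnq1ot1. They were chosen by symbol, and all 6 were present in both libraries. They are 6 of the 43346 genes in the main gene table and 6 of the 6853 genes that GENCODE M21 lists there as long noncoding. Total RNA was sequenced from CH12.LX, an immortalized mouse B cell lymphoma line of strain B10.H-2aH-4bp/Wts, labelled female and of unknown age, for which the labels name no treatment or genetic change. There were 2 libraries, biological replicates 1 and 2 of this single group. The study therefore holds no contrast between conditions, and the comparison made between samples is library against library. Total RNA was not fractionated as far as the labels say, so the nuclear location of these RNAs is background and was not measured.

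Malat1 and Neat1 are long noncoding RNAs that stay in the nucleus. Malat1 gathers at nuclear speckles, bodies rich in splicing factors, and the long form of Neat1 is the scaffold of paraspeckles, which hold RNA-binding proteins. Mir17hg and Dleu2 are host RNAs: Drosha and Dgcr8 cut microRNA hairpins out of them in the nucleus, so the level of a host is not the level of its mature microRNAs. Mir17hg carries the miR-17-92 cluster, which promotes B cell lymphoma in mice, and human DLEU2 carries miR-15a and miR-16-1 in a region often deleted in chronic lymphocytic leukaemia. Pvt1 lies beside the oncogene Myc. Kcnq1ot1 is an unspliced RNA made from the paternal chromosome, antisense to Kcnq1, that silences neighbouring imprinted genes on the same chromosome.

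The 2 host genes are best known for the mature microRNAs cut from them, whose guide arms are shown because their seeds define what each host can regulate. The sequences are those of RefSeq on GRCm38.p6, 5′ to 3′, and capitals mark the seed, bases 2 to 8. The 6 arms from Mir17hg, whose hairpins lie on the plus strand within chr14:115043671-115044506, carry 4 different seeds. miR-17-5p and miR-20a-5p share one seed, miR-19a-3p and miR-19b-3p share another, and miR-18a-5p and miR-92a-3p each have their own.
miR-17-5p: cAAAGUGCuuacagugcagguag
miR-20a-5p: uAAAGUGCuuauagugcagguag
miR-18a-5p: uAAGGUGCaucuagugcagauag
miR-19a-3p: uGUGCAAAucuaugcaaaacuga
miR-19b-3p: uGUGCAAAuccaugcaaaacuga
miR-92a-3p: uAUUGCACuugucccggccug

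The 2 arms from Dleu2, on the minus strand at chr14:61632075-61632096 and chr14:61631936-61631957, share a single seed, so both can pair with the same seed sites.
miR-15a-5p: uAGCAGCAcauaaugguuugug
miR-16-5p: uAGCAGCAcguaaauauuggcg

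The libraries held 49278361 and 55950517 expected counts in replicates 1 and 2, rounded per gene. Levels are given in TPM, which is scaled for transcript length and library depth. Protein-coding genes took 24.4% and 24.3% of all TPM in replicates 1 and 2, so every TPM below reads low against a scale of protein-coding genes alone. Of 12 B cell markers, 11 reached 1 TPM in both libraries, led by Ighm at 1545 and 1452 TPM in replicates 1 and 2. Of 27 markers of T cells, NK cells, myeloid and erythroid cells, stroma and epithelium, 2 did, Cd3g at 2.69 and 3.04 TPM in replicates 1 and 2 and Cd3d at 1.14 and 1.45 TPM. The 27 summed to 4.90 and 5.66 TPM in replicates 1 and 2. Their part in the levels below was not tested.

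Malat1 was the highest of the 6 genes per length. It had 153 and 110 TPM in replicates 1 and 2, a mean of 132 ± 30.9 TPM (SD, n = 2), and ranked 7 among the 6853 long noncoding genes by mean TPM. Of protein-coding genes, 98.8% had a lower mean. The gene (ENSMUSG00000092341) is annotated as a lincRNA at chr19:5795690-5802672 on the minus strand (mm10). The deposited credibility bounds of its TPM were 149 and 156 in replicate 1 and 106 and 112 in replicate 2, and did not overlap between the libraries.

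Neat1 (ENSMUSG00000092274), its neighbour at chr19:5824708-5845478 on the same strand, had 12.3 and 15.8 TPM in replicates 1 and 2, a mean of 14.1 ± 2.49 TPM (SD, n = 2). It ranked 35 among long noncoding genes, above 88.5% of protein-coding genes. Malat1 was 12.4 times as high as Neat1 in replicate 1 and 6.93 times as high in replicate 2. Gene-level TPM of Neat1 is mostly its short form, described below with the long paraspeckle scaffold. Set over the length of the longest transcript of each gene, a calculation added after the values were seen, Malat1 had 74.0 and 56.5 TPM in replicates 1 and 2 and Neat1 had 2.46 and 2.75 TPM, a wider gap in both libraries.

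Pvt1 (ENSMUSG00000097039), a spliced lincRNA over chr15:62037986-62378096 on the plus strand, had 8.92 and 7.65 TPM in replicates 1 and 2 (mean 8.29 ± 0.898, SD, n = 2). Mir17hg (ENSMUSG00000089726), the miR-17-92 host at chr14:115042879-115046727 on the plus strand, had 8.49 and 6.30 TPM in replicates 1 and 2 (mean 7.40 ± 1.55, SD, n = 2). The library values of these genes overlap, so their order does not exceed the spread between the libraries. Within each library Pvt1 was the higher, and the deposited bounds of these genes overlapped in replicate 1 but not in replicate 2. Whether their levels differ was not tested. Pvt1 lay above 82.1% of protein-coding genes and Mir17hg above 80.6%.

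Dleu2 (ENSMUSG00000097589), the miR-15a and miR-16-1 host at chr14:61602839-61682373 on the minus strand, had 2.10 and 1.99 TPM in replicates 1 and 2 (mean 2.05 ± 0.0778, SD, n = 2). Its deposited bounds began slightly above those values, at 2.11 and 2.03 in replicates 1 and 2, and its deposited posterior mean TPM was 2.45 and 2.36 in replicates 1 and 2. Dleu2 lay above 63.8% of protein-coding genes. The cluster host Mir17hg was 3.62 times as high as Dleu2 by mean TPM, with no overlap of library values.

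Kcnq1ot1 (ENSMUSG00000101609), the imprinted antisense RNA at chr7:143203458-143296549 on the minus strand, had 0.43 and 0.27 TPM in replicates 1 and 2 (mean 0.35 ± 0.113, SD, n = 2). It was the one gene of the 6 below 1 TPM in both libraries, and 52.2% of protein-coding genes had a lower mean. Over all long noncoding genes 203 of 6853, or 2.96%, reached 1 TPM in both libraries. Apart from the step from Pvt1 to Mir17hg, no neighbours in the order of mean TPM overlapped in their library values.

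The order by reads was different, because the transcripts differ widely in length. Kcnq1ot1 spans 93092 bases as 1 exon in GENCODE M21, the source of its position above. The M4 model that was counted has 84395 bases, so the 2 models differ. Kcnq1ot1 received 4012 and 2762 expected counts in replicates 1 and 2. That was 7.10 times the counts of Dleu2 in replicate 1 and 4.83 times in replicate 2, although its TPM was 0.205 and 0.136 times that of Dleu2. Among long noncoding genes Kcnq1ot1 ranked 20 by counts and 492 by mean TPM. Malat1 ranked 3 by counts, with 55805 and 46516 in replicates 1 and 2, and Neat1 ranked 13, with 5598 and 6848. Together the 6 genes took 0.143% of all counts in replicate 1 and 0.108% in replicate 2, and 1.82% and 1.13% of the counts of long noncoding genes. By TPM that class was led by Gm42418, at 4866.27 and 13743.5 TPM in replicates 1 and 2, and Gm26917, at 8914.87 and 6663.53 TPM. Their part in the shares and ranks given here was not tested.

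**Figure D1:**
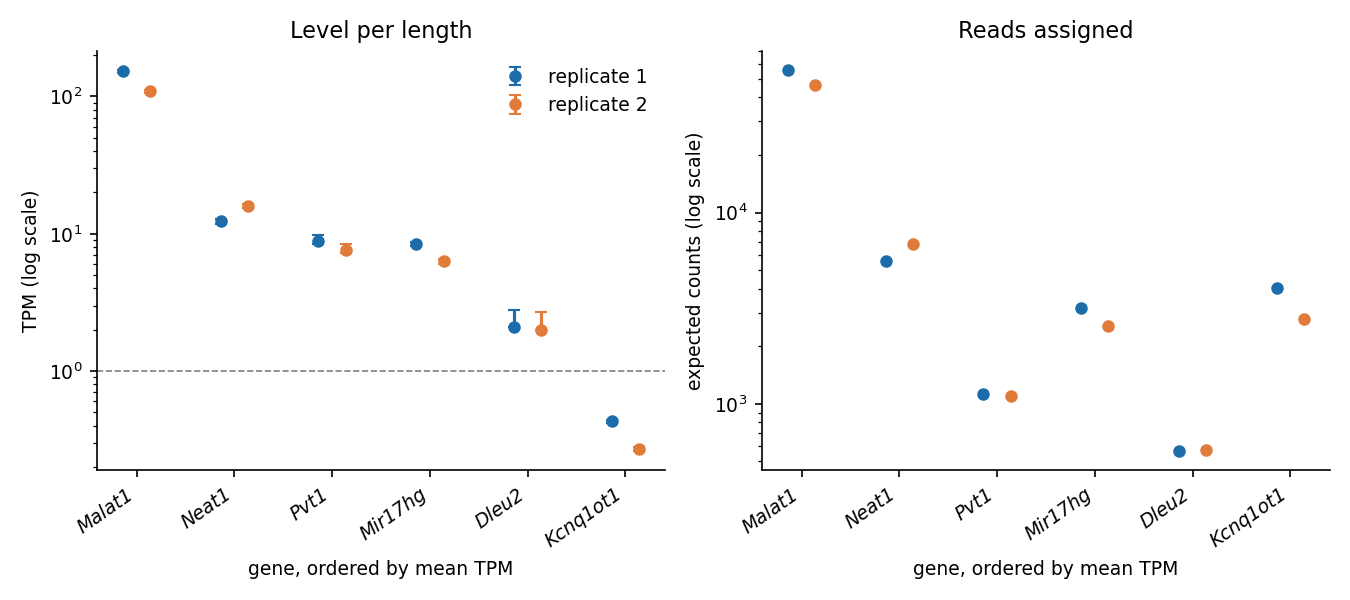
The left panel plots TPM of each gene on a log axis, with points for replicate 1 (blue, left) and replicate 2 (orange, right), bars for the deposited credibility bounds and a dashed line at 1 TPM; the right panel plots expected counts on a log axis. Kcnq1ot1 is lowest by TPM, at 0.43 and 0.27, yet has 4012 and 2762 expected counts, more than Pvt1, Dleu2 or Mir17hg.

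The transcript tables divide each gene between its annotated RNAs. Malat1 had 3 transcripts with at least 5% of the gene's TPM in either library. Malat1-201, the full-length unspliced RNA of 6983 bases, took 44.5% and 47.9% in replicates 1 and 2. The spliced forms Malat1-204 (656 bases) and Malat1-202 (556 bases), which end within a few bases of it, together took 55.6% and 52.1% in replicates 1 and 2. By expected counts the picture was different, since Malat1-201 held 92.1% of the reads in replicate 1 and 93.0% in replicate 2 and the short forms together held 7.91% and 6.97%. Malat1-201 alone stood at 68.2 and 52.6 TPM in replicates 1 and 2, and the remaining TPM of the gene rests on that small share of reads.

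The 3′ end of Malat1 is shown because it is not made by ordinary polyadenylation. RNase P cuts the RNA after an A-rich tract that folds with U-rich motifs into a triple helix. In Malat1-201 (GENCODE M21, chr19:5795972-5796077, minus strand), capitals mark both U-rich motifs and the A-rich tract.
Malat1-201: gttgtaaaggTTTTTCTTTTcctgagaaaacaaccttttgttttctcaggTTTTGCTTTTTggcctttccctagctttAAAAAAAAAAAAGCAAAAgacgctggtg
The tract ended 292 bases before the annotated end of Malat1-201. The transcript model therefore includes sequence beyond the RNase P site, and it carries a downstream AATAAA that begins 22 bases from its end. Reads over these last bases were not separated from those over the body, because the tables give 1 value per transcript.

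Neat1 has a short polyadenylated form and a long form that share their start. Neat1-202, the short form of 3004 bases, had 11.1 and 13.7 TPM in replicates 1 and 2, or 89.9% and 86.6% of the gene. Neat1-201, the paraspeckle scaffold of 20771 bases, had 0.92 and 0.81 TPM in replicates 1 and 2, or 7.43% and 5.10%. Per length the short form was 12.04 times the long form in replicate 1 and 16.9 times in replicate 2. Because of its length Neat1-201 still held 37.2% of the gene's counts in replicate 1 and 29.3% in replicate 2, that is 2085 and 2009 reads. The short form had deposited bounds of 10.6 to 11.4 TPM in replicate 1 and 13.2 to 14.1 TPM in replicate 2, and the long form 0.869 to 0.957 and 0.765 to 0.845. Neither pair of bounds overlapped, and the forms differed in opposite directions between the libraries. Another spliced form, Neat1-203, had 0.32 and 1.31 TPM in replicates 1 and 2.

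The ends of both Neat1 forms are shown because they separate the RNAs. The long form ends, like processed Malat1, in an A-rich tract preceded by a U-rich motif, and has no AATAAA in its last 30 bases. The short form carries an AATAAA polyadenylation signal that begins 20 bases from its end. Both runs are the last 70 bases of their transcripts (GENCODE M21, minus strand), at chr19:5824708-5824777 for Neat1-201 and chr19:5842307-5842376 for Neat1-202, with the motifs in capitals.
Neat1-201: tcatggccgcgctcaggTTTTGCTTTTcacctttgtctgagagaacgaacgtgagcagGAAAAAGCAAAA
Neat1-202: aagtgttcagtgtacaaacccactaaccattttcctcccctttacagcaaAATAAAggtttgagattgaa
The level of the Neat1 gene depends on how its forms are weighted. With all counts of each gene set over its longest transcript, Pvt1 reached 3.22 and 2.90 TPM in replicates 1 and 2, and the mean of Dleu2 was 1.25 TPM. The order of means was then Malat1, Mir17hg, Pvt1, Neat1, Dleu2 and Kcnq1ot1, and the library values of Pvt1 and Neat1 did not overlap.

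Pvt1 was the most divided of the 6, with 10 transcripts of which 6 reached 5% in either library. Its leading RNAs were close to one another. Pvt1-210 took 21.5% and 24.9% in replicates 1 and 2, Pvt1-209 took 21.4% and 17.6%, and Pvt1-208 took 19.9% and 19.3%. Pvt1-210, Pvt1-208 and Pvt1-201 end within 305 bases of one another and together made up 56.1% of Pvt1 in replicate 1 and 55.7% in replicate 2. By counts Pvt1-203, of 2798 bases, led with 21.1% and 20.4% in replicates 1 and 2. The leading form of Pvt1 thus depends on the measure.

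Dleu2 had 15 transcripts, of which 5 reached 5% and 7 had no counts in either library. The hairpins of miR-15a and miR-16-1 lie in introns: 8 of the 15 transcripts span them, and none has them in an exon. These 8 together held 10.8% of Dleu2 counts in replicate 1 and 11.7% in replicate 2, but 39.9% and 40.5% of its TPM. Most of the remaining counts were assigned to 3 RNAs that stop just before the hairpins or begin at them. Dleu2-202 ends 239 bases before the Mir15a hairpin and Dleu2-207 ends 189 bases before it, and together they held 47.6% of counts in replicate 1 and 47.1% in replicate 2. Dleu2-215, an unspliced RNA of 4098 bases, begins inside the Mir16-1 hairpin and held 41.4% of counts in replicate 1 and 40.0% in replicate 2. The 3 RNAs together made up 89.0% of Dleu2 counts in replicate 1 and 87.2% in replicate 2, and 59.8% and 57.6% of its TPM. Per length the spliced Dleu2-210, of 722 bases, led with 34.3% and 32.1% in replicates 1 and 2, on 44.8 and 42.9 counts. Its deposited bounds were 0.515 to 0.951 TPM in replicate 1 and 0.462 to 0.849 TPM in replicate 2. Those of Dleu2-215 were 0.471 to 0.609 and 0.420 to 0.544 TPM, so the bounds overlapped in both libraries.

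The Mir16-1 hairpin is shown because the annotated start of Dleu2-215 falls within it. In the RefSeq hairpin (GRCm38.p6, chr14:61631880-61631972, minus strand), capitals mark the 13 bases that are also the first bases of Dleu2-215. They begin 2 bases after the last base of miR-16-1-3p, the arm cut from the 3′ side.
Mir16-1 hairpin: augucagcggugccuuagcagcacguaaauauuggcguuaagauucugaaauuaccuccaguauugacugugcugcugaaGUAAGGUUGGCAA
The end of Dleu2-207 is shown beside it as the other boundary. Its last 50 bases (GENCODE M21, chr14:61632299-61632348, minus strand) hold an AATAAA, in capitals, that begins 18 bases from the end.
Dleu2-207: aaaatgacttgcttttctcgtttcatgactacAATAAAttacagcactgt
The tables give 1 value per transcript, so read depth across the hairpins themselves was not seen.

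**Figure D2:**
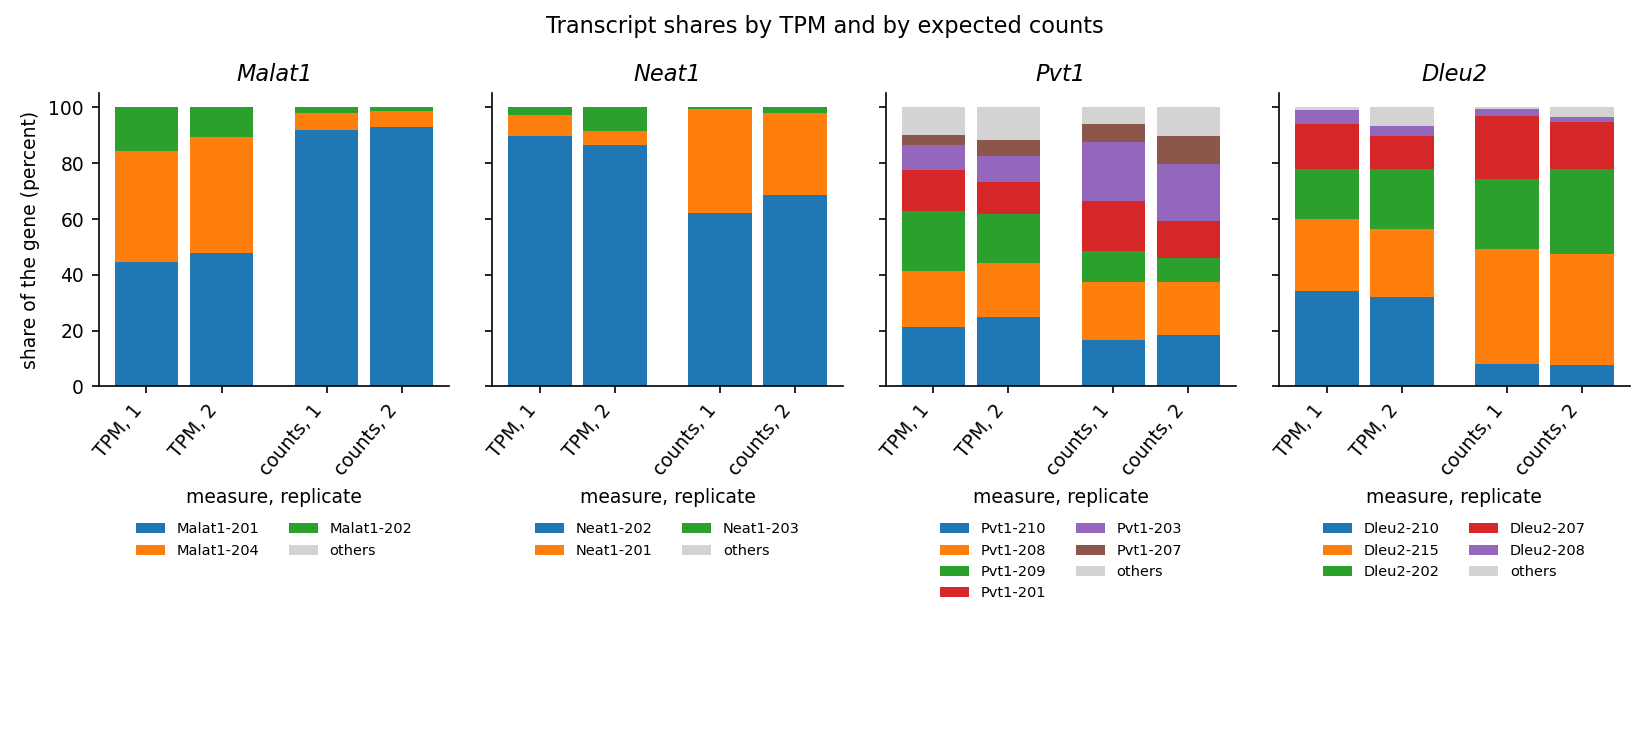
Stacked bars give the share of Malat1, Neat1, Pvt1 and Dleu2 held by each transcript with at least 5% of the gene's TPM in either library, as percent of TPM (left pair) and percent of expected counts (right pair), replicate 1 before replicate 2, with other transcripts in grey. Malat1-201 holds 44.5 and 47.9% by TPM but 92.1 and 93.0% by counts, and Neat1-201 holds 7.43 and 5.10% by TPM but 37.2 and 29.3% by counts.

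**Figure D3:**
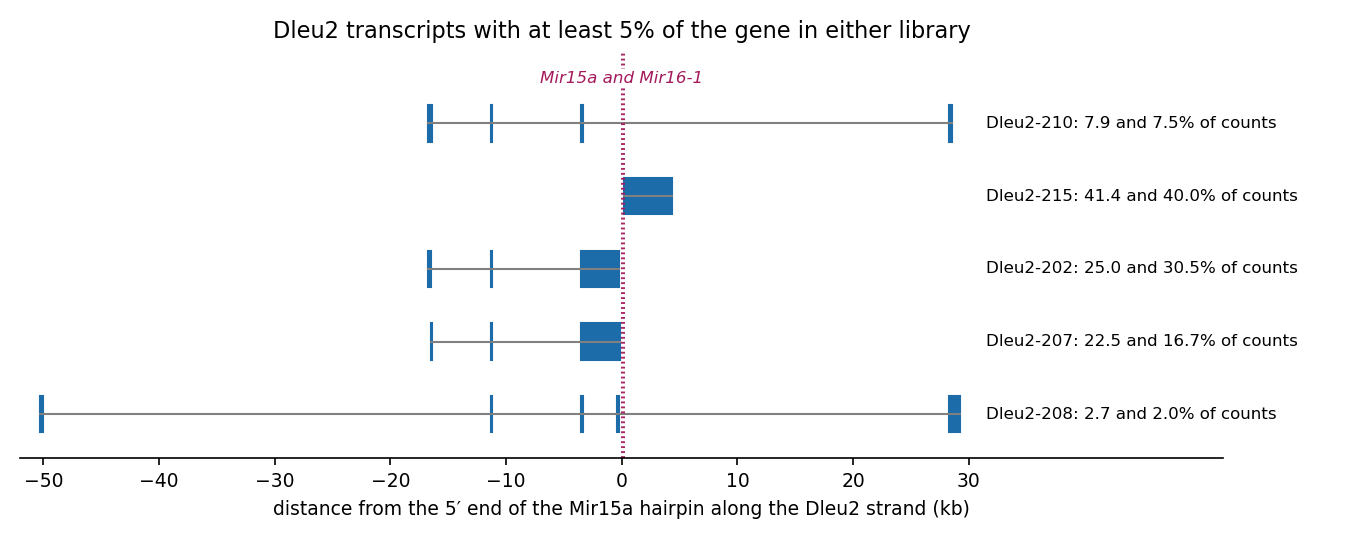
Exons (blue boxes) and introns (grey lines) of the 5 Dleu2 transcripts with at least 5% of the gene in either library are drawn by distance in kb from the 5′ end of the Mir15a hairpin along the Dleu2 strand, with dotted lines at Mir15a and Mir16-1 and, at right, each transcript's percent of Dleu2 counts in replicates 1 and 2. Dleu2-202 and Dleu2-207 end 239 and 189 bases before the Mir15a hairpin, and Dleu2-215, with 41.4 and 40.0% of counts, begins inside the Mir16-1 hairpin.

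Mir17hg is arranged in another way. Its single transcript, of 3536 bases in 2 exons, has all 6 hairpins of the cluster in exon 2, so the spliced RNA still contains them. The hairpins span 836 bases and begin 792 bases from the start of the gene. Each was listed with 0 counts in both libraries, as were Mir15a and Mir16-1. These zeros carry no information on the microRNAs. Their effective length, the number of positions from which a fragment could arise, was 0 in both libraries, as for 1866 of the 1894 microRNA genes in the table.

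Malat1, Neat1 and Pvt1 also hold small annotated RNA domains, some of which received counts. Gm27913, a domain of 173 bases inside the first exon of a Pvt1 transcript, had 47.5 counts in replicate 1 and 53.0 in replicate 2. Its effective length of 16.1 and 11.3 bases in replicates 1 and 2 turned these into 26.7 and 38.9 TPM, above Pvt1 itself. In Neat1, Gm27533 was at 0 and 27.2 TPM in replicates 1 and 2, on 0 and 7.71 counts. Such entries lie within their hosts and share reads with them, so their split from the host is uncertain. The others inside these genes (Gm27694 in Malat1, Gm27505 and Gm28006 in Neat1, Gm27782, Gm27718 and Gm27957 in Pvt1) had at most 3 counts in either library.

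On the opposite strand, Gm37376 shares exon bases with Malat1 and received 190 and 138 counts in replicates 1 and 2, that is 5.85 and 3.98 TPM. Kcnq1, the potassium channel gene across which Kcnq1ot1 is transcribed, also shares exon bases with Kcnq1ot1. Kcnq1 had 0 counts in both libraries, which allows up to 0.0388 and 0.0359 TPM in replicates 1 and 2. Trim13, which overlaps Dleu2 with no shared exon bases, had 0.92 and 0.74 TPM in replicates 1 and 2. Whether counting used the strand is not given in the sources used here, so reads of Malat1 and Gm37376 cannot be told apart with certainty. The same holds for Kcnq1ot1 and Kcnq1, so the 0 counts of Kcnq1 and its upper level are uncertain too.

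Between the libraries no gene of the 6 passed both an adjusted p of 0.05 and a ratio of 2, in a two-sided exact binomial test on rounded counts with TMM scaling and Benjamini-Hochberg adjustment over 15438 genes. Over all genes tested 737, or 4.77%, did. By the adjusted p alone 4 of the 6 passed, against 50.4% of all genes tested. Of these 4, 3 were higher in replicate 1 and 1 was lower. Of all genes tested, 25.1% passed the adjusted p higher in replicate 1 and 25.2% passed it lower. With a ratio of 1.5, a threshold added after the values were seen, 1 of the 6 was called, against 10.9% of all genes. Beside these shares the counts are no result about the 6 genes as a set. This test takes in counting error alone and sets one library against the other, not one condition against another.

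By counts Kcnq1ot1 had a log2 ratio of replicate 1 over replicate 2 of 0.64 (95% counting interval 0.57 to 0.71), a ratio of 1.56 (adjusted p = 3.66e-71, exact binomial test). On TPM its log2 difference, which has no test, was 0.52 with a pseudocount of 0.1 and 0.17 with a pseudocount of 1. It was farthest from 0 of the 6 by counts and with the smaller pseudocount. With a pseudocount of 1 Malat1, Mir17hg and Neat1 were farther from 0, at 0.48, 0.38 and -0.34. Mir17hg had a log2 ratio of 0.40 (0.33 to 0.48; adjusted p = 6.19e-25, exact binomial test). Both were thus higher in replicate 1 by less than a ratio of 2. Malat1 had a log2 ratio of 0.36 (0.34 to 0.38), and its adjusted p was too small to be held as a number. Neat1 went the other way, with a log2 ratio of -0.19 (-0.24 to -0.14; adjusted p = 9.79e-13, exact binomial test). It was -0.11 with scaling by totals (adjusted p = 0.000109, exact binomial test) and -0.36 on TPM with a pseudocount of 0.1. The intervals of Malat1 and Neat1 lie on opposite sides of 0.

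Pvt1 and Dleu2 did not pass. Pvt1 had a log2 ratio of 0.12 (0.0023 to 0.24; adjusted p = 0.0846, exact binomial test), and Dleu2 had 0.08 (-0.09 to 0.25; adjusted p = 0.481, exact binomial test). For Dleu2 a difference anywhere within its interval remains possible. The deposited TPM bounds of the libraries overlapped for these 2 genes alone among the 6. The median log2 ratio was 0.24 over the 6, 0.12 over the 228 long noncoding genes tested at a mean of 1 TPM or more, and 0.03 over all 9835 genes tested at that level.

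**Figure D4:**
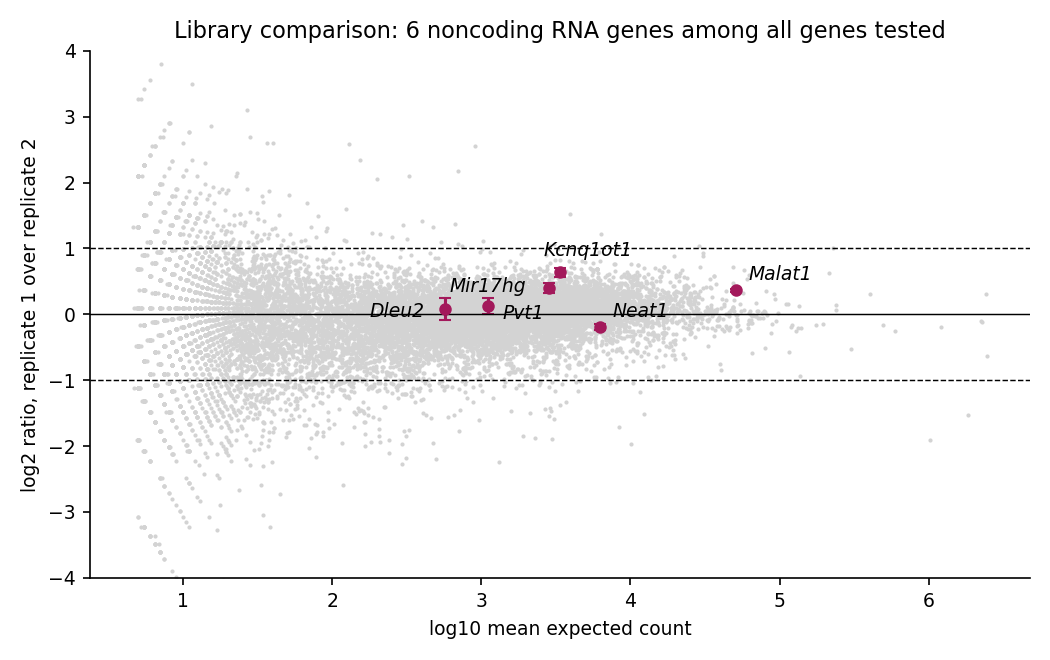
Each grey point is a gene, with the log10 of its mean expected count on the x axis and its log2 ratio of replicate 1 over replicate 2 on the y axis (cut at 4 either way, genes with no counts in one library left out); the 6 noncoding RNA genes are in red with 95% counting intervals, and dashed lines mark a ratio of 2. All 6 lie between the dashed lines, from -0.19 for Neat1 to 0.64 for Kcnq1ot1.

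The RNAs act with proteins and on targets whose genes were grouped into lists. The shares of all genes set beside each list are over every gene with at least 10 summed counts and were not matched for counts. With more counts a smaller ratio passes the adjusted p. A list above these shares is therefore no result about the list as a set. Over all protein-coding genes 8895, or 41.4%, reached 1 TPM in both libraries. All 12 genes of the paraspeckle proteins that assemble on Neat1 reached 1 TPM in both libraries, with a median of the mean level of 21.2 TPM. Hnrnpk, an RNA-binding protein needed for paraspeckle formation, was highest at 164 and 143 TPM in replicates 1 and 2, and the core protein Nono followed at 77.7 and 71.9 TPM. Its partner Sfpq had 55.01 and 40.4 TPM in replicates 1 and 2, and Hnrnph3 was lowest at 3.12 and 3.70 TPM. Between the libraries 7 of the 12 passed the adjusted p higher in replicate 1 and 2 lower, beside 25.1% and 25.2% of all genes tested, and none was called at a ratio of 2, as 4.77% of all genes were.

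All 9 genes of nuclear speckles, where Malat1 gathers, also reached 1 TPM in both libraries, with a median of 33.3 TPM. The splicing factors Srsf1, at 153 and 103 TPM in replicates 1 and 2, and Srsf2, at 112 and 70.1 TPM, led the list, and the splicing protein Srrm1 was lowest at 6.48 and 6.01 TPM. All 9 passed the adjusted p, as 50.4% of all genes tested did, 7 of them higher and 2 lower in replicate 1 (25.1% and 25.2% of all genes). None was called at a ratio of 2, where 4.77% of all genes tested were.

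The enzymes that cut the 3′ ends of Malat1 and long Neat1 were listed with a protein that binds the Malat1 triple helix. Of 13 genes, 12 reached 1 TPM in both libraries. Rpph1, the RNA of RNase P, had 16817 and 8590 TPM in replicates 1 and 2. It was the 1 gene of the list called, as 4.77% of all genes tested were, with a log2 ratio of 1.00. Mettl16, which binds the triple helix, had 24.6 and 19.2 TPM in replicates 1 and 2, and Elac2, which cuts the small tRNA-like RNA released from Malat1, had 20.1 and 15.9 TPM. The RNase P protein gene Rpp25 was near 0, on 2 and 8 counts in replicates 1 and 2. Of the 13, 11 passed the adjusted p higher in replicate 1 and none lower, where all genes gave 25.1% and 25.2%.

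The machinery that turns the hosts into microRNAs had 15 of 16 genes at 1 TPM or more in both libraries, with a median of 3.91 TPM. Drosha, which cuts the hairpins from the hosts, had 6.93 and 5.91 TPM in replicates 1 and 2, and its partner Dgcr8 had 9.21 and 6.44 TPM. Dicer1, which trims the hairpins in the cytoplasm, had 3.25 and 2.69 TPM in replicates 1 and 2. Of the Argonaute genes that load the product, Ago2 had 2.50 and 3.23 TPM in replicates 1 and 2, and Ago4 was lowest of the list at 0.33 and 0.63 TPM. Of the 16, 8 passed the adjusted p higher and 6 lower in replicate 1, next to 25.1% and 25.2% of all genes. At a ratio of 2 none was called, where 4.77% of all genes tested were.

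Genes known as targets of the hosts' microRNAs were measured for their levels only. Of 10 targets of the miR-17-92 cluster 7 reached 1 TPM in both libraries, with a median over the list of 1.98 TPM. Tgfbr2, a TGF-beta receptor gene, was highest at 10.3 and 10.4 TPM in replicates 1 and 2, and the cell cycle inhibitor gene Cdkn1a had 6.21 and 9.76 TPM. Of the 10, 9 were tested, and 5 passed the adjusted p higher in replicate 1 and 2 lower (25.1% and 25.2% of all genes). Rora, a nuclear receptor gene, was the 1 target called at a ratio of 2, where 4.77% of all genes were, lower on 33 and 124 counts in replicates 1 and 2. Of 9 targets of miR-15a and miR-16 8 reached 1 TPM in both libraries, with a median of 8.81 TPM. The cyclin gene Ccnd2 was highest at 24.6 and 29.3 TPM in replicates 1 and 2, and the survival gene Bcl2 had 1.83 and 3.25 TPM. Of the 9, 2 passed the adjusted p higher and 4 lower in replicate 1, with the same shares of all genes, and Vegfa, a blood vessel growth factor, was the 1 called, lower at 5.32 and 12.3 TPM in replicates 1 and 2. With neither mature microRNAs nor a contrast measured, these levels say nothing about regulation by either host.

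**Figure D5:**
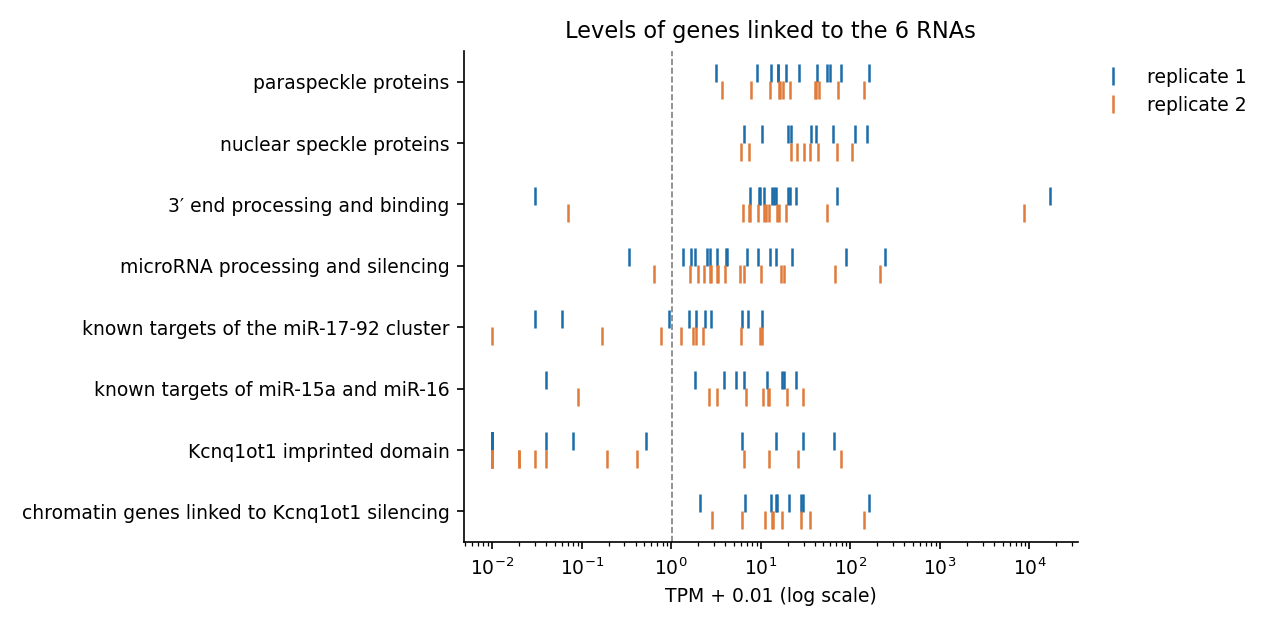
Each tick is a gene of a list, placed by TPM plus 0.01 on a log axis, in replicate 1 (blue, upper row) and replicate 2 (orange, lower row), with a dashed line at 1 TPM. All 12 paraspeckle and all 9 nuclear speckle genes lie right of the line in both libraries. Of the 14 genes listed for the Kcnq1ot1 domain, which include H19, Igf2 and Ins2 of the neighbouring domain, 4 do.

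The median log2 ratio of replicate 1 over replicate 2 was 0.08 for paraspeckle, 0.20 for nuclear speckle, 0.31 for 3′ end and 0.11 for microRNA machinery genes. It was 0.22 for miR-17-92 targets and -0.17 for miR-15a and miR-16 targets, and 0.13 for the chromatin genes and -0.16 for the imprinted domain described next, against -0.01 over all 15438 genes tested.

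Myc, which activates transcription of Mir17hg and lies 47612 bases from Pvt1, was the 1 protein-coding gene within 250 kb of Pvt1. It had 15.5 and 14.7 TPM in replicates 1 and 2, with a log2 ratio of 0.07 (95% counting interval -0.0023 to 0.13; adjusted p = 0.105, exact binomial test). Neither Pvt1 nor Myc thus passed the test between the libraries, while Mir17hg did. Whether the ratio of Mir17hg differs from theirs was not tested. With scaling by totals Pvt1 also passed (adjusted p = 0.00189, exact binomial test). E2f3, also an activator of the cluster, had 2.74 and 2.23 TPM in replicates 1 and 2, and E2f1 had 1.56 and 1.27 TPM. Mycn had 0 counts in both libraries, which allows up to 0.0151 and 0.0139 TPM in replicates 1 and 2. The 1 coding gene near Mir17hg, Gpc5, had 0 and 2 counts in replicates 1 and 2.

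Around Kcnq1ot1 most of the genes listed for its imprinted domain were under 1 TPM. The list of 14 also holds H19, Igf2 and Ins2, which belong to the neighbouring H19 and Igf2 imprinted domain. Of the 10 coding genes within 250 kb of Kcnq1ot1, 4 reached 1 TPM in both libraries. Over all protein-coding genes 41.4% did, so this is no result about the domain. The same 4 were the only listed genes to reach 1 TPM in both libraries. They were led by Cd81, a B cell coreceptor subunit, at 66.1 and 78.0 TPM in replicates 1 and 2. The others were the histone chaperone gene Nap1l4, at 29.9 and 26.1 TPM in replicates 1 and 2, Tssc4 at 14.7 and 12.4 TPM, and Tspan32 at 6.15 and 6.56 TPM. Cdkn1c and Phlda2, growth-restraining genes that Kcnq1ot1 is known to silence, had 0 counts in replicate 1 and 1 count each in replicate 2, and so did Ascl2. Gene-level counts do not tell the parental chromosomes apart, so the part of Kcnq1ot1 in these levels was not tested. Of the 6 tested genes of the list, 2 passed the adjusted p higher and 2 lower in replicate 1, beside 25.1% and 25.2% of all genes. Slc22a18 was the 1 called at a ratio of 2 (4.77% of all genes), lower on 7 and 30 counts in replicates 1 and 2. The 9 chromatin genes linked to silencing by Kcnq1ot1 all reached 1 TPM in both libraries, among them Ehmt2, the H3K9 methyltransferase G9a, at 28.3 and 35.5 TPM in replicates 1 and 2. Of the 9, 6 passed the adjusted p higher and 2 lower in replicate 1, where 25.1% and 25.2% of all genes did.

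Malat1 and Neat1 sit in a dense region. Of the 23 coding genes measured within 250 kb of Malat1, 17 reached 1 TPM in both libraries. Around Neat1 23 of 30 did, beside 41.4% of all protein-coding genes. None of either was called different between the libraries, where 4.77% of all genes tested were, so this is no result about the region. Rnaseh2c, an RNase H2 subunit, had 40.2 and 30.3 TPM in replicates 1 and 2. Sssca1 had 38.3 and 27.0 TPM in replicates 1 and 2, and Pola2, a DNA polymerase alpha subunit, had 16.2 and 12.3 TPM. Fau, which encodes a ribosomal protein, lies within 250 kb of Neat1 and had 573 and 603 TPM in replicates 1 and 2. Around Dleu2 3 of 5 coding genes reached 1 TPM, and Kpna3, an importin gene, was highest at 6.60 and 4.91 TPM in replicates 1 and 2.

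Of 18 other long noncoding RNAs taken for comparison 8 reached 1 TPM in both libraries. So did 5 of the 6, and 2.96% of all long noncoding genes. Both sets were chosen with earlier results known, so these counts are no result about the 6 as a set. Gas5, a snoRNA host, was the highest at 159 and 177 TPM in replicates 1 and 2, near Malat1. Xist, which is made from the inactive X chromosome of female cells, had 0 and 2 counts in replicates 1 and 2 of this line labelled female. Of the 9 tested, 3 passed the adjusted p higher and 1 lower in replicate 1, again beside 25.1% and 25.2% of all genes.

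By the Euclidean distance of log2(TPM + 0.1) over the 2 libraries, the long noncoding gene nearest to Malat1 was Snhg20, at 134 and 138 TPM in replicates 1 and 2, followed by Gm26619. The nearest to Neat1 was Mir155hg, host of miR-155, at 14.2 and 17.3 TPM in replicates 1 and 2, followed by 4930558J22Rik. Brip1os, at 9.37 and 7.41 TPM in replicates 1 and 2, was nearest to both Pvt1 and Mir17hg, with AU020206 second for Pvt1 and Pvt1 itself second for Mir17hg. Tmem250-ps, at 2.21 and 2.00 TPM in replicates 1 and 2, was nearest to Dleu2, followed by 2010320M18Rik. C130046K22Rik and Gm19412, both at 0.43 and 0.25 TPM in replicates 1 and 2, were nearest to Kcnq1ot1, although they rested on 24 and 15 counts and on 16 and 9 counts. Likeness here is of level in 2 libraries of 1 cell line and nothing more.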

How the data were processed

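Total RNA of CH12.LX was sequenced in 2 libraries, biological replicates 1 and 2 per the labels. The authors deposited, per the file headers, expected counts, TPM, FPKM and percent shares of transcripts within genes, with other columns such as credibility bounds, for annotations M2, M3 and M4 on mm10. No label or header names an aligner or quantifier (not given in the sources used here), and M4 tables were used. Of 69691 rows, 26345 name no gene and held 28 and 29.99 counts; they were left out, as were spike-ins among them. Symbols, biotypes and positions were taken from GENCODE M21, built on that assembly (42462 of 43346 genes matched). Detection meant 1 TPM or more in both libraries. Counts were rounded, scaled with TMM (edgeR 4.0.16, R 4.3.3) and compared by a two-sided exact conditional binomial test over genes with at least 10 summed counts; intervals cover counting error only. The test was tested on simulated data drawn with counting error alone, a spread that these libraries exceed. Python 3.11.15, numpy 2.4.6, pandas 2.3.3, scipy 1.17.1 and matplotlib 3.10.9 were used.

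The 6 genes and all gene lists were chosen with earlier results of these data known. The text names all 6 genes, transcripts with at least 5% of a gene, small RNA genes inside them, up to 4 highest and 2 lowest genes of each list, up to 3 highest coding neighbours, and the 2 nearest long noncoding genes; other genes named were chosen after their values were seen. Norad had no match and was not analysed here. The libraries are not copies, since their counts differed by a chi-square of 177 per degree of freedom over 15438 genes.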

Additional observations from a re-analysis of the deposited data

How the results depend on the processing

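The order of the 6 genes by mean TPM was the same with the M3 table, FPKM, posterior mean TPM, TPM rescaled to protein-coding and long noncoding genes, and with either library alone, and for the 5 genes in the M2 table, which lacks Kcnq1ot1. By expected counts 3 of the 6 kept their place, because length is then not divided out. Over the length of the longest transcript, added after the values were seen, 4 kept their place, with Mir17hg above Pvt1 and Neat1. Counts of genes at 1 TPM or more in both libraries ranged from 5 to 6, the 6 with rescaled TPM, on which Kcnq1ot1 had 1.66 TPM in replicate 1 and 1.02 TPM in replicate 2; at 10 TPM there were 2. With 1 library left out, 5 genes reached 1 TPM and 6 kept their place in the order. Library calls numbered 670 to 737 under other scalings, filters and tables, with 0 of the 6 genes called; without the ratio criterion 7779 genes and 4 of the 6 were called, and at a ratio of 1.5, added after the values were seen, 1685 and 1. Of called genes 22.4% were higher in replicate 1, and 32.4% with scaling by totals. Pvt1 passed the adjusted p with scaling by totals alone (log2 ratio 0.21, adjusted p = 0.00189, exact binomial test; 0.0627 to 0.114 otherwise). Leaving out a library leaves no ratio. No paired analysis was possible because there is a single group. With 2 libraries, variation between cultures is poorly estimated. Genes under 1 TPM can rest on few reads, as C130046K22Rik did with 24 and 15 counts in replicates 1 and 2. Others did not, such as Phlpp2 with 727 and 639 counts and the long Kcnq1ot1 with 4012 and 2762.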
